A study of Mus musculus with 12 samples.

Results

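The E2F family of transcription factors was followed in 3 mouse small cell lung cancer lines in which the transcription factor Nfib was lowered or raised. Its members were taken by name: the E2F genes E2f1, E2f2, E2f3, E2f4, E2f5, E2f6, E2f7 and E2f8 and the dimerization partner (DP) genes Tfdp1 and Tfdp2, which are 10 of the 23226 features with 1 gene name. All 10 had an adjusted p in every comparison. RNA was sequenced in 12 samples, 2 in each of 6 groups. In the lines 16T and KP1, labelled as high in Nfib, samples with an shRNA against Nfib (sh2 in the titles of both lines) were compared with samples with a control shRNA (shLuc). In KP22, labelled as low in Nfib, samples with a vector for Nfib were compared with samples with an empty vector. All groups were labelled Trp53-/-;Rb1-/-, so the controls lacked both tumor suppressors too, and all were tumor-derived lines grown as floating spheres. A single shRNA was used per line, and nothing says that the duplicates were grown separately, so the spread among duplicates may be technical. Each p comes from the authors' fit over all their libraries, and not from the duplicates of a single line alone.

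E2F proteins bind gene promoters as dimers with a DP protein and time the transcription of genes for DNA synthesis and division. E2f1, E2f2 and E2f3 encode activators that the retinoblastoma protein Rb1 holds in check until S phase, E2f4 and E2f5 encode repressors that act with the related pocket proteins Rbl1 and Rbl2, and E2f6 encodes a repressor that works with Polycomb proteins and does not bind pocket proteins. E2f7 and E2f8 encode atypical repressors that bind DNA without a DP partner and limit E2F target genes late in S phase. Loss of Rb1 is a defining lesion of small cell lung cancer, which places this family directly downstream of the genotype of the lines.

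The deposited values are log2 fold changes with standard errors (SE) from the authors' own model. They hold no value for a single sample, so levels by sample or group, the number of samples showing a direction, and the depth of each library are unknown here. Rose and fell stand for an adjusted p under 0.05, called means the same, and ± is followed by the SE. Since the headings lack a direction, the sign of Nfib set it. In the authors' deposited table the log2 fold change of Nfib was -1.08 ± 0.035 with the shRNA in 16T, -1.32 ± 0.035 with it in KP1, and 1.80 ± 0.036 with the vector in KP22. The neuroendocrine markers of this tumor type were all listed, and Neurod1 had a mean normalized count of 298 in the authors' deposited table. There the leukocyte gene Ptprc had a mean of 1.38, the fibroblast gene Lum 1.01 and the endothelial genes Cdh5 and Emcn 2.11 and 0, while Pdgfra had 2220 and Kdr 495. Of the 6 leukocyte markers, 1 was tested in 16T and in KP1 and 4 in KP22, and 0 were called there. Lyz2 of this list was called in contrasts across lines, higher in the knockdown mean than in KP22 (adjusted p = 0.0281) and lower in the mean of the 3 effects towards higher Nfib (-0.94 ± 0.29). In the fibroblast list 3 of 4 tested genes rose in 16T, 1 of 4 fell in KP1 and 1 of 6 fell in KP22. The endothelial list had 3, 3 and 4 tested genes in that order, of which only Kdr was called, and it fell in each line. The shares of all genes called were again 45.3%, 37.2% and 38.4%. Their part in the values of the E2F genes was not tested.

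The members differed in abundance. The table gives 1 mean normalized count per gene over all libraries, with no spread, which was divided here by exon length to compare genes. Tfdp1, the main DP partner, stood far above the others with 9754 per kb of exon. E2f1 with 2315, E2f4 with 2154 and E2f2 with 2067 per kb lay close together, and E2f8 and E2f6 followed with 1313 and 1093. The lowest levels per kb were 663 for E2f7, 635 for Tfdp2, 575 for E2f3 and 566 for E2f5, the last measured on only 1047 bp of exon. Without a spread, the order of neighbouring levels cannot be tested.

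**Figure D1:**
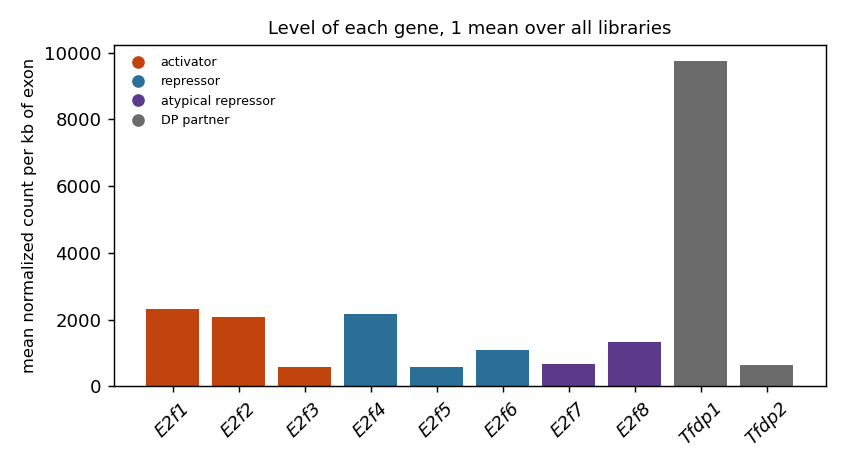
Mean normalized count per kb of exon (vertical axis) for the 10 genes, 1 value per gene over all libraries, colored by role. Tfdp1 (9754) stands above the other 9, which lie between 566 and 2315.

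All 3 activator genes fell in 16T after Nfib knockdown, and E2f2 and E2f3 rose in KP22 with Nfib cDNA. Of the atypical repressor genes, E2f8 rose in every comparison and E2f7 in KP1 and KP22. In 16T 1 of the 10 members rose and 4 fell, against 45.3% of all tested genes called (20% higher and 25.3% lower). In KP1 4 rose and 1 fell, against 37.2% called (17.6% higher and 19.6% lower). In KP22 6 rose and 0 fell, against 38.4% called (19.5% higher and 18.8% lower). For 16T, KP1 and KP22 in turn, the median log2 fold change over the 10 members was -0.11, 0.02 and 0.26, beside medians over all tested genes of -0.05, -0.02 and 0.04. Over the 3 comparisons E2f8 passed the test in each, 5 members in 2 comparisons, 3 members in 1, and E2f5 in none. The share of all genes called in as many comparisons was not computed, so these counts describe the members only. In bulk RNA, a smaller share of cycling cells and less transcript per cell cannot be told apart.

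**Figure D2:**
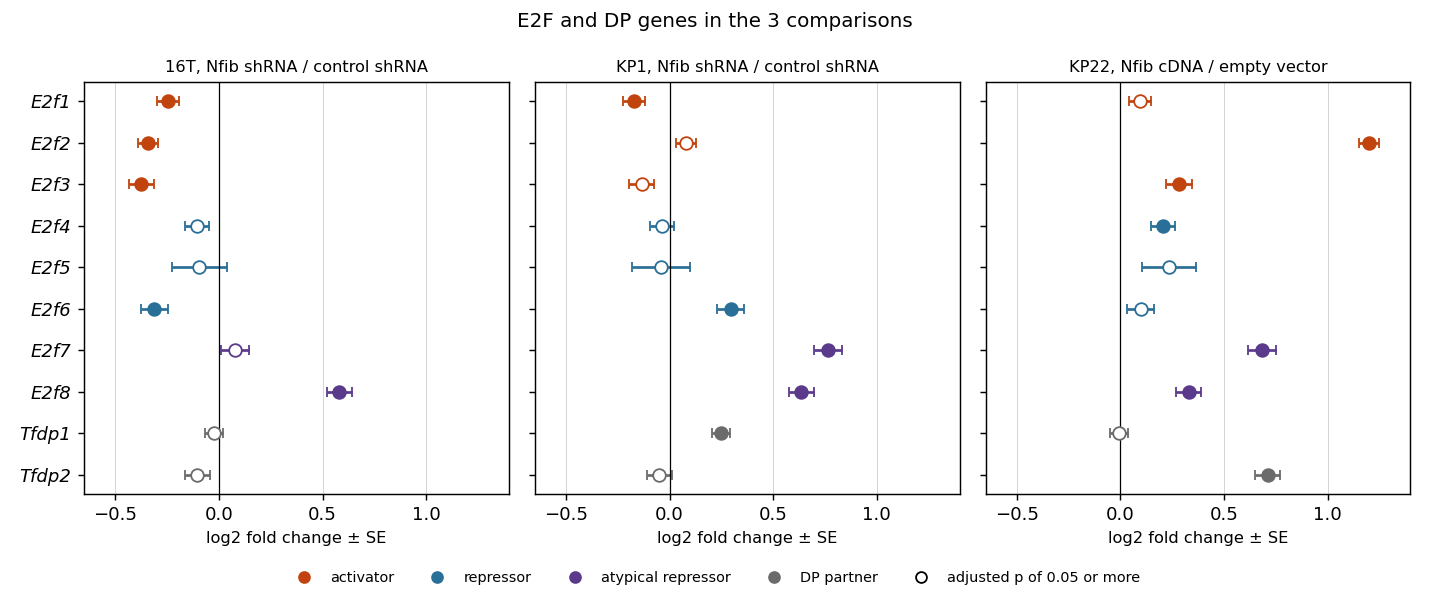
Log2 fold change with its SE (horizontal axis) for each gene in the 3 comparisons. Filled points have an adjusted p below 0.05, open points do not. The 3 activators lie between -0.37 and -0.25 in 16T and between 0.10 and 1.20 in KP22, and E2f8 lies to the right of 0 in all 3 panels.

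E2f2 made the largest change of the family. Its log2 fold change in KP22 with Nfib cDNA was 1.20 ± 0.046 in the authors' deposited table (adjusted p = 5.57e-145), which is 2.30 times the level with the empty vector (95% interval 2.16 to 2.45). In 16T with the shRNA it fell to 78.9% of the control level (-0.34 ± 0.046, adjusted p = 2.27e-12), per the authors' deposited table. KP1 gave no call (0.08 ± 0.047, adjusted p = 0.195 in the authors' deposited table), with a 95% interval from -0.01 to 0.17. E2f2 therefore moved in the direction of Nfib in 16T and in KP22, and its KP1 value lay on the other side of 0.

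E2f3, which makes an activator form (E2F3a) and a shorter form (E2F3b) from separate first exons, followed with smaller values. In the authors' deposited table it fell by 0.37 ± 0.062 in 16T (adjusted p = 1.41e-08), had -0.14 ± 0.061 in KP1 (adjusted p = 0.0722) and rose by 0.28 ± 0.063 in KP22 (adjusted p = 4.25e-05). The table sums both forms, so they cannot be told apart. A further 220 bp of E2f3 exon, held under a joined name at a mean of only 142, had 0.05 ± 0.26, 0.34 ± 0.26 and 0.06 ± 0.27 in the same order in the authors' deposited table, with no call and SEs too wide to separate it from the rest of the gene.

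E2f1, the activator best known for also inducing cell death genes, fell in both knockdown lines. Its value was -0.25 ± 0.053 in 16T (84.3% of control, adjusted p = 2.04e-05) and -0.17 ± 0.052 in KP1 (88.8% of control, adjusted p = 0.00445) in the authors' deposited table. The KP1 call rests on the normal distribution: under a t distribution (6 degrees of freedom) its adjusted p was 0.0662. In KP22 E2f1 had 0.10 ± 0.054 in the authors' deposited table (adjusted p = 0.170, 95% interval -0.01 to 0.20), so its change there, if any, was far below that of E2f2.

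The repressors that depend on pocket proteins moved little. E2f4 had -0.11 ± 0.057 in 16T and -0.04 ± 0.058 in KP1, neither called, and rose by 0.21 ± 0.058 in KP22 (adjusted p = 0.00146), per the authors' deposited table. E2f5 passed no test: the authors' deposited table gives -0.10 ± 0.13, -0.04 ± 0.14 and 0.23 ± 0.13 for 16T, KP1 and KP22. Its 95% interval in KP22, -0.02 to 0.49, holds both 0 and the rises of E2f4 and E2f3. A further 801 bp of E2f5 exon are shared with 1810022K09Rik and were not assigned to it here.

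E2f6, the Polycomb-linked repressor, went opposite ways in the 2 knockdown lines. It fell in 16T to 80.5% of control (-0.31 ± 0.066, adjusted p = 1.10e-05) and rose in KP1 to 123% of control (0.29 ± 0.066, adjusted p = 5.88e-05) in the authors' deposited table. KP22 gave 0.10 ± 0.066 and no call (adjusted p = 0.266 in the authors' deposited table).

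The atypical repressors E2f7 and E2f8 rose whether Nfib was lowered or raised. E2f8 rose in 16T by 0.58 ± 0.061 (149.6% of control, adjusted p = 7.56e-20), in KP1 by 0.64 ± 0.062 (155%, adjusted p = 2.64e-23) and in KP22 by 0.33 ± 0.061 (126%, adjusted p = 4.65e-07) in the authors' deposited table. E2f7 rose in KP1 by 0.76 ± 0.068 (1.70 times, adjusted p = 7.61e-28) and in KP22 by 0.68 ± 0.068 (1.60 times, adjusted p = 1.66e-22), and had 0.08 ± 0.066 in 16T (adjusted p = 0.375), per the authors' deposited table. E2f7 in KP1, and E2f2 and Tfdp2 in KP22, were the members that the test against a change of 0.5 in the authors' deposited table also called (adjusted p of 0.0033, 3.91e-49 and 0.0073). That test called 0 members in 16T, against 5.25% of genes, 1 in KP1, against 4.58%, and 2 in KP22, against 7.66%. By annotation, 500 of the 3691 exonic bases of E2f8 (13.5%) are also exonic on the opposite strand in Gm2788, and 86 bases of E2f7 in 1700020G17Rik, which is listed at 0. No strand setting is given in the sources used here, so antisense reads cannot be told apart from those of E2f8.

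The DP genes changed in different lines. Tfdp2 rose in KP22 by 0.71 ± 0.060 (1.64 times, adjusted p = 6.25e-31), with -0.11 ± 0.060 in 16T and -0.05 ± 0.060 in KP1, neither called, in the authors' deposited table. Exons of Tfdp2 under a joined name rose as well in KP22 (0.56 ± 0.22, adjusted p = 0.0289 in the authors' deposited table). Tfdp1, the more abundant partner, rose in KP1 by 0.25 ± 0.043 (1.19 times, adjusted p = 8.94e-08) while 16T had -0.02 ± 0.043 and KP22 -0.01 ± 0.043, per the authors' deposited table. The 95% interval of Tfdp1 in KP22 was -0.09 to 0.08, which excludes a rise of the size seen for Tfdp2.

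Set side by side, the 3 activators ranged from -0.37 to -0.25 in 16T, the repressors E2f4 to E2f6 from -0.31 to -0.10, and the atypical repressors from 0.08 to 0.58. In KP1 the ranges were -0.17 to 0.08 for the activators, -0.04 to 0.29 for E2f4 to E2f6 and 0.64 to 0.76 for the atypical repressors. In these knockdown lines both atypical repressor genes thus had values above all 3 activator genes. In KP22 the ranges overlapped, with 0.10 to 1.20 for the activators, 0.10 to 0.23 for E2f4 to E2f6 and 0.33 to 0.68 for the atypical repressors. As counts, 16T had 0 rises and 3 falls among the activators, KP1 0 and 1, and KP22 2 and 0. Among the 5 repressor genes 16T had 1 rise and 1 fall, KP1 had 3 rises and 0 falls, and KP22 likewise 3 and 0.

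The knockdown lines differed from each other for 5 of the 10 members, each with a lower value in 16T than in KP1, against 29.4% of genes called in this contrast (14% higher in 16T and 15.5% lower). The difference was computed from the deposited effects, with Benjamini-Hochberg adjustment over 15008 genes. It was -0.69 ± 0.094 for E2f7 (adjusted p = 1.25e-11), -0.61 ± 0.093 for E2f6 (adjusted p = 1.67e-09) and -0.42 ± 0.066 for E2f2 (adjusted p = 3.74e-09). Tfdp1 had -0.27 ± 0.061 (adjusted p = 7.90e-05) and E2f3 -0.24 ± 0.087 (adjusted p = 0.0237). The E2f3 difference was no longer called with a t distribution (0.132) or after recentring on the median gene (0.0586). E2f8 was not called (-0.05 ± 0.087), with a 95% interval of -0.22 to 0.12 for the difference, which is narrow beside its rise in either line.

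**Figure D3:**
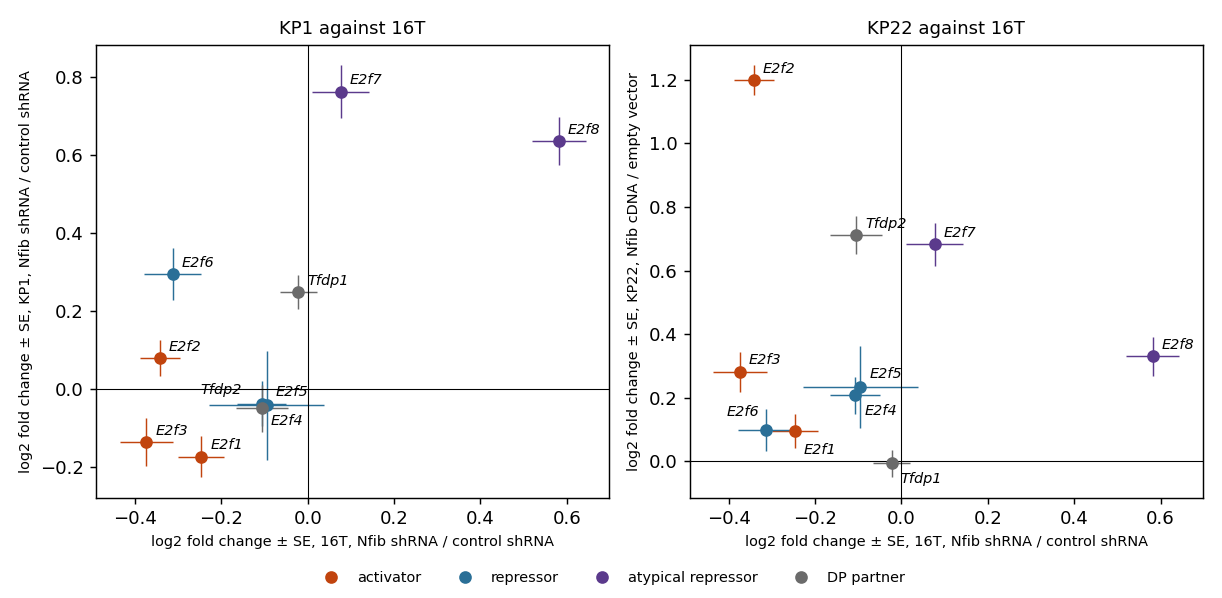
Log2 fold change with SE of each gene in 16T (horizontal axis) against KP1 (left) and against KP22 (right), colored by role. E2f8 lies at 0.58 and 0.64 in the 2 knockdown lines, E2f7 at 0.08 and 0.76, and the 3 activators lie left of 0 in 16T and above 0 in KP22.

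Averaged over the 3 lines and turned towards higher Nfib, 5 members were higher and 2 lower, against 52.9% of genes called (29.2% higher and 23.7% lower). The mean effect was 0.49 ± 0.027 for E2f2, 0.29 ± 0.035 for Tfdp2, 0.26 ± 0.036 for E2f3, 0.17 ± 0.031 for E2f1 and 0.12 ± 0.033 for E2f4 (adjusted p of 1.56e-71, 8.43e-16, 1.03e-12, 1.09e-07 and 0.00127). E2f8 had -0.30 ± 0.035 (adjusted p = 5.92e-16) and Tfdp1 -0.08 ± 0.025 (adjusted p = 0.00429). For E2f8 this mean joins rises in both knockdown lines with a rise under the cDNA, so it does not describe any single direction with Nfib. Tfdp2 and E2f4 were called in KP22 alone of the 3 lines, Tfdp1 in KP1 alone, and E2f2 had no call in KP1. The SE and p of these means hold the errors within each line, and not the spread between the lines. E2f7, whose rises came in KP1 and KP22, had -0.05 ± 0.039 and no call (adjusted p = 0.257). The difference between the mean of the knockdown effects and KP22 was called for 8 members, 2 higher and 6 lower, against 52.2% of genes (23.7% higher and 28.5% lower), and was largest for E2f2 at -1.33 ± 0.057.

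Promoter sequence was examined because E2F genes are themselves known E2F targets. RefSeq windows (GRCm38.p6, the build mm10), from 250 bases before to 50 after each annotated start, were matched for 8 of the 10 members, all but E2f4 and E2f5. They were searched on both strands for an E2F element of 8 bases (TTTCCCGC, TTTCGCGC, TTTGCCGC or TTTGGCGC), for the core that is left without its first T, which every such element contains, and for the cell cycle homology region TTTGAA, bound by MuvB complexes. The core was found in 5 of the 8 members (E2f2, E2f3, E2f7, E2f8 and Tfdp1), and 10.9% of 27025 genes hold it. The longer element was found in 4 of them (E2f2, E2f3, E2f7 and Tfdp1), against 2.61% of genes, and TTTGAA in E2f2, E2f3 and E2f8, against 20.2%. In E2f2 the TTTGAA lies in the window of a different annotated start (chr4:136180532-136180831) from that of its E2F element. No match says only that these letters are not in this window. The stretches upstream of the start of E2f8, E2f7 and E2f3, and the E2f2 site 40 bases after its annotated start, are printed for the members with the main changes, with matches to the core, the longer element and TTTGAA in capitals. They were read at chr7:48881597-48881846 (minus strand), chr10:110745189-110745438 (plus strand), chr13:29986064-29986313 (minus strand) and chr4:136172294-136172323 (plus strand).
E2f8: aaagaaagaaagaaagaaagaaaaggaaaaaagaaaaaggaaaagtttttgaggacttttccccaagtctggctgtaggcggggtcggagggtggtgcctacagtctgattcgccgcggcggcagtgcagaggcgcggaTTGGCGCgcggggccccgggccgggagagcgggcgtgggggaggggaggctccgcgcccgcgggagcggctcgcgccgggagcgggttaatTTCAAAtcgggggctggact
E2f7: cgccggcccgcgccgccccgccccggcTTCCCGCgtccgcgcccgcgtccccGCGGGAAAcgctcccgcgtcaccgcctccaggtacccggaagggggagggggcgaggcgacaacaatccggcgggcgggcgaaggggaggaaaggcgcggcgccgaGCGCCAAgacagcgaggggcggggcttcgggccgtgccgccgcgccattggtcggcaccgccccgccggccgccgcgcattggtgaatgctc
E2f3: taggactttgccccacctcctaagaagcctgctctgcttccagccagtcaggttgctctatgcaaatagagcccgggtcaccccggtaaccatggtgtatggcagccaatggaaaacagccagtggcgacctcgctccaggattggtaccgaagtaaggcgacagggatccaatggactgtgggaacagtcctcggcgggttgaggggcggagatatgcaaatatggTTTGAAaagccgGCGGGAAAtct
E2f2: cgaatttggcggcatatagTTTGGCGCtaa
E2f8, which rose in all 3 comparisons, has 1 core 111 bases before its start and the reverse complement of TTTGAA 20 bases before it. This start lies outside the exon intervals counted for E2f8, which end at chr7:48881041. The printed E2f2 stretch likewise lies before its counted exon intervals, which begin at chr4:136172394. E2f7 has 3 cores in this stretch, at 223, 198 and 92 bases before its start, of which the second is the longer element. E2f3, which fell in 16T and rose in KP22, has the longer element 11 bases before its start and TTTGAA 23 bases before it. A match describes the letters and was not tested as a site in these cells.

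Upstream of the family, Rb1 and the cell cycle inhibitor Cdkn1a changed in each line. Rb1 rose in 16T by 0.31 ± 0.048, in KP1 by 0.51 ± 0.045 and in KP22 by 0.23 ± 0.044, per the authors' deposited table, at a mean normalized count of 6555. Its value sums all exons and so does not check the Rb1-/- label. Of 10 genes of the pocket proteins and the MuvB complex, 16T had 1 rise and 1 fall, KP1 had 5 and 1, and KP22 had 6 and 0, with medians of 0.08, 0.16 and 0.24. The count in 16T lies below the 45.3% of all genes called, and those in KP1 and KP22 above the 37.2% and 38.4%. With recentring 3 rose in 16T, and under a t distribution 1 rose and 0 fell in KP1. In KP22 the rises included the MuvB partners Mybl2 (0.70 ± 0.061) and Foxm1 (0.53 ± 0.068), the pocket protein gene Rbl1 (0.53 ± 0.066) and the MuvB subunit gene Lin54 (0.36 ± 0.083) in the authors' deposited table. Rbl2 fell in KP1 (-0.26 ± 0.082 in the authors' deposited table) and Rbbp4, a histone-binding MuvB subunit, fell in 16T (-0.27 ± 0.049).

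Of the cyclins, kinases and inhibitors that act on pocket proteins, 14 were tested in the knockdown lines, with 7 rises and 4 falls in 16T and 8 rises and 2 falls in KP1 (1 fall among genes with a mean of at least 100). Of all tested genes, 45.3% were called in 16T and 37.2% in KP1. Cdkn1a, which encodes p21, rose by 1.31 ± 0.092 in 16T and 1.19 ± 0.090 in KP1, and it fell by 0.52 ± 0.088 in KP22, per the authors' deposited table. Cdk6, a D cyclin kinase gene at a mean of only 23.8, fell with the shRNA in both lines (-1.83 ± 0.48 in 16T, -2.17 ± 0.48 in KP1), as did Ccnd3 (-0.44 ± 0.14 and -0.58 ± 0.13), per the authors' deposited table. Ccne2, a cyclin E gene and classical E2F target, rose in KP1 by 0.53 ± 0.056 in the authors' deposited table. It also rose in 16T (0.15 ± 0.056) and in KP22 (0.32 ± 0.056). The other cyclin E gene, Ccne1, fell in 16T (-0.31 ± 0.063), rose in KP1 (0.46 ± 0.062) and was not called in KP22. In KP22 3 of 15 tested genes rose and 4 fell, against 38.4% of all genes called. Among them were Ccna2 (0.37 ± 0.046) upward and Cdkn2d (-0.87 ± 0.068) and Cdkn1c (-0.82 ± 0.13) downward in the authors' deposited table. Ccna2 rose in 16T (0.18 ± 0.047) and KP1 (0.20 ± 0.046) as well. Among 4 turnover genes of E2F proteins, the ubiquitin ligase inhibitor Fbxo5 rose in all 3 comparisons (0.28 ± 0.060, 0.26 ± 0.060 and 0.38 ± 0.061 in the authors' deposited table). In KP22 Ccnf (0.40 ± 0.064) and Skp2 (0.36 ± 0.071), subunits of ubiquitin ligases, rose too, per the authors' deposited table. The turnover list had 1 rise and 2 falls in 16T, 1 rise in KP1 and 3 in KP22, against 45.3%, 37.2% and 38.4% of all genes called.

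Among 12 partners of E2f6 in its Polycomb complex, 16T and KP1 each had 1 rise and 3 falls, below the 45.3% and 37.2% of all genes called, and KP22 had 5 rises and 1 fall, against 38.4%. With recentring, 4 rose in 16T, 1 fell in KP1 and 2 fell in KP22, and under a t distribution 1 fell in KP1. Rybp, a Polycomb subunit gene, rose in 16T (0.65 ± 0.052) and KP1 (0.34 ± 0.051) and fell in KP22 (-0.19 ± 0.051) in the authors' deposited table. The histone methyltransferase gene Ehmt1 went the other way (-0.36 ± 0.045, -0.26 ± 0.045 and 0.24 ± 0.046 in the authors' deposited table). Max, the DNA-binding partner in the complex, fell in 16T (-0.29 ± 0.079) and rose in KP22 (0.32 ± 0.078), and L3mbtl2 did the same (-0.25 ± 0.080 and 0.27 ± 0.081), per the authors' deposited table.

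Most genes that E2F proteins are known to drive in S phase fell in 16T and rose in KP22, with calls in both directions in KP1. Of 48 S phase targets, 2 rose and 35 fell in 16T (median -0.26), 13 rose and 8 fell in KP1 (median 0.03), and 37 rose and 3 fell in KP22 (median 0.32). Over all tested genes, 45.3%, 37.2% and 38.4% were called in the same order. Orc1, an origin recognition subunit gene, fell by 0.61 ± 0.13 in 16T, and Dscc1, Pole2 and the thymidine kinase gene Tk1 fell by 0.60 ± 0.14, 0.55 ± 0.084 and 0.51 ± 0.079 in the authors' deposited table. In KP22 the replication gene Mcm10 (0.61 ± 0.078), the ribonucleotide reductase gene Rrm2 (0.57 ± 0.041) and Dscc1 (0.56 ± 0.14) rose, while the histone chaperone gene Asf1b fell (-0.56 ± 0.068), per the authors' deposited table. Asf1b was also the largest riser of the list in KP1 (0.80 ± 0.066), and Gins1 (0.45 ± 0.13) and Slbp (0.34 ± 0.045) rose there too in the authors' deposited table. The effect in 16T was below that in KP1 for 34 of the 48 genes and above it for 0, against 15.5% and 14% of all genes. With a t distribution it was below for 18, 8 rose and 5 fell in KP1, and 1 fell in KP22.

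DNA repair targets of E2F changed mainly in KP22. Of 10 genes, 0 rose and 3 fell in 16T, 2 rose and 0 fell in KP1, and 9 rose and 0 fell in KP22, with medians of -0.06, -0.02 and 0.50. In 16T and KP1 these counts lie below the 45.3% and 37.2% of all genes called, and in KP22 above the 38.4%. Under a t distribution 1 fell in 16T and 1 rose in KP1. In KP22 the recombination motor gene Rad54l had the largest rise of the list (adjusted p = 5.14e-40 in the authors' deposited table). The helicase gene Blm rose there by 0.54 ± 0.079 and Bard1 by 0.52 ± 0.10 in the authors' deposited table. Genes of G2 and mitosis gave 8 rises and 5 falls of 28 in 16T, a share near the 45.3% of all genes called. They gave 12 and 1 for KP1 (0 falls under a t distribution), against 37.2%, and 24 and 1 for KP22, against 38.4%, with medians of 0.01, 0.09 and 0.28. The proliferation marker Mki67 rose by 0.48 ± 0.045 and the kinase gene Aurkb by 0.44 ± 0.053 with the Nfib vector in KP22, per the authors' deposited table. With the Nfib shRNA Mki67 also rose in 16T (0.17 ± 0.045) and was not called in KP1 (0.07 ± 0.045). Aurkb rose with the shRNA in both lines (0.26 ± 0.054 in 16T and 0.19 ± 0.053 in KP1). The largest called changes of the list in 16T were falls, of Birc5 (-0.40 ± 0.10) and Cdca8 (-0.32 ± 0.044), beside the 8 rises. The share of cycling cells was not measured, and its part in the values of the E2F genes was not tested.

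**Figure D4:**
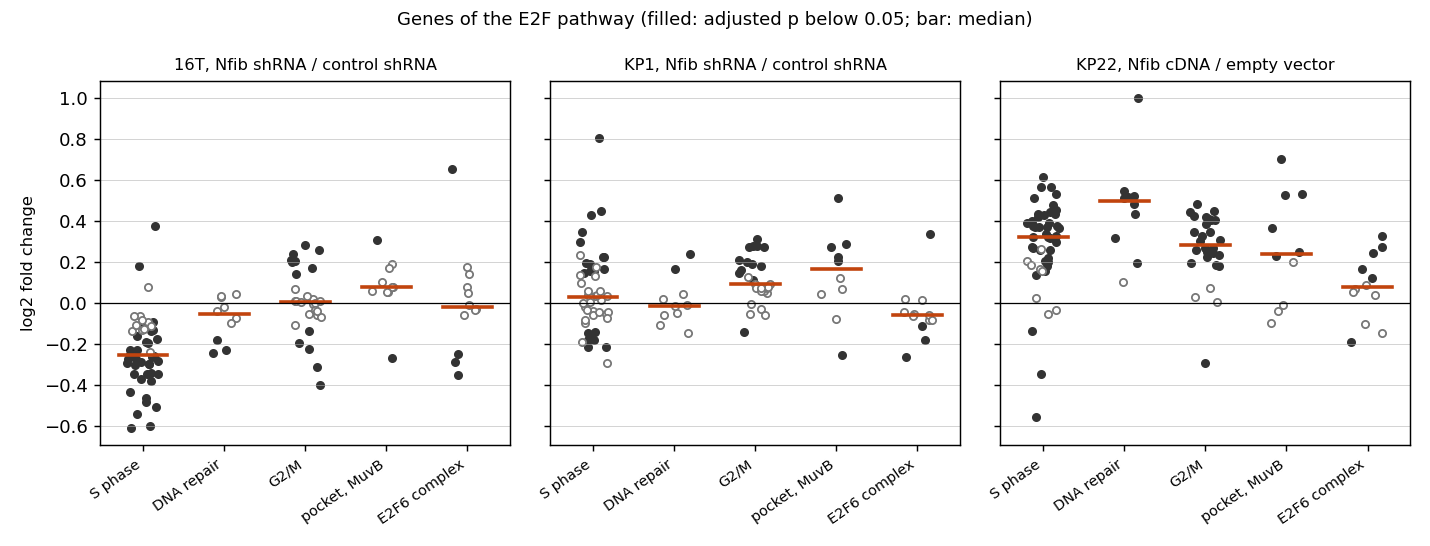
Log2 fold change (vertical axis) of the genes of 5 lists in the 3 comparisons, with filled points for an adjusted p below 0.05, open points for the rest and a bar at the median. The S phase medians are -0.26 in 16T, 0.03 in KP1 and 0.32 in KP22.

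Among 12286 other genes with a mean of at least 100, those whose 3 effects lay nearest to those of E2f2 were Angpt2, Vegfc and Garem, at Euclidean distances of 0.080, 0.088 and 0.118 on the log2 scale. For E2f8 they were Nras, Gadd45g and Gm5105, at 0.017, 0.043 and 0.095. For Nras the authors' deposited table gives 0.60 for 16T, 0.64 for KP1 and 0.32 for KP22, and the likeness rests on 3 effects only.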

How the data were processed

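The submitters' processing notes name the mouse build mm10 and the tools TopHat, bedtools, DESeq and DESeq2, without versions or roles. The deposited table, named by the authors for cqn normalization and DESeq, holds comparisons. Per the file headers, it gives for each of 28112 features an averaged signal of all libraries (mean normalized count), a log2 fold change and its SE on the log2 scale, a Wald score and p-values. Its adjusted p-values were used as deposited. A second deposited list of exon intervals gave lengths.

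Features with several joined names were left out, which leaves 23226. From the deposited effects and SEs, 3 contrasts were made (numpy 2.4.6, scipy 1.17.1) over the 15008 genes whose mean reached 10. Errors were added as for independent samples, p came from the normal distribution and was adjusted by Benjamini-Hochberg. The code was tested on simulated data. Intervals are 95% intervals from the SE. All 10 members passed the filter. Depth per library is unknown, and precision is that of the SEs (0.043 to 0.14 for the members). The members, the gene lists and the naming rule were chosen with earlier results of these data known: all 10 members are named, and from each list up to 4 called genes with the largest change per comparison, a few of which are not reported here. Rb1 in KP22 and the markers were named for their role. Alternatives were other filters on the mean, a t distribution, recentring, the deposited test against 0.5, an adjusted p below 0.01 and exons under joined names.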

Additional observations from a re-analysis of the deposited data

Results flagged for a closer look

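For 5 members the effect of the Nfib shRNA differed between 16T and KP1 by the test of the difference itself, over 15008 genes with Benjamini-Hochberg adjustment. The log2 effect in 16T minus that in KP1 was -0.69 for E2f7, -0.61 for E2f6, -0.42 for E2f2, -0.27 for Tfdp1 and -0.24 for E2f3. Only E2f6 was called in both lines with opposite signs; the others were called in 1 of the lines.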

How the results depend on the processing

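Over the 6 contrasts and the alternatives run, 341 of 366 values of single members kept their direction and side of the threshold. Another 21 kept the direction but lost the call, and 4 turned sign. Direction could change only with recentring (1 of 60 values turned) and with joined exons (3 of 6), since the other alternatives use the same effects. The filters on the mean leave in all members, whose lowest mean is 593. The total is therefore no measure of how stable the directions are. The sign turned for Tfdp1 in 16T after recentring on the median gene (0.024) and, with exons under a joined name, for E2f3 in 16T (0.053) and KP1 (0.34) and for Tfdp2 in 16T (0.30); none of these 4 values was called. Recentring subtracts -0.05 in 16T, -0.01 in KP1 and 0.04 in KP22. With the authors' test against a change of 0.5, which asks for a larger change, 0 members were called in 16T (0 higher and 0 lower), 1 in KP1 (1 higher and 0 lower) and 2 in KP22 (2 higher), and 813, 709 and 1264 genes in all. When p came from a t distribution (6 degrees of freedom), 0 members were lower in KP1, 3278 genes were called in KP1 and 1870 in the difference between 16T and KP1. In the difference between the knockdown mean and KP22, 1 member was higher in place of 2 with a t distribution, without a filter on the mean and at an adjusted p below 0.01, as Tfdp1 lost its call. No paired analysis was possible because the table used here holds comparisons with no values per sample; leaving out each replicate was not run for the same reason.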

Other observations

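Outside the cell cycle lists, genes of programs in which single E2F proteins are known to act were also followed. Of 9 genes that E2F1 is known to induce in cell death, 2 rose and 4 fell in 16T, 2 rose and 2 fell in KP1, and 3 rose and 3 fell in KP22. Over all tested genes, 45.3%, 37.2% and 38.4% were called, so the count in KP1 lies near the share of all genes. The directions were mixed in each line. Trp73, which encodes the p53 relative p73, fell by 1.45 ± 0.12 in 16T and 0.62 ± 0.20 in KP1 and rose by 4.75 ± 0.18 in KP22 in the authors' deposited table. E2f1 itself had -0.25, -0.17 and 0.10 in the same comparisons of the authors' deposited table, and a link between it and Trp73 was not tested. The pro-apoptotic gene Bcl2l11 rose in 16T (0.63 ± 0.12) and KP1 (0.82 ± 0.12), per the authors' deposited table.

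Of the genes of multiciliated cell formation, in which E2F4 and E2F5 act with Mcidas, 0 of 4 tested rose and 1 fell in 16T, 0 and 0 changed in KP1, and 3 of 5 tested rose in KP22. All tested genes gave calls for 45.3%, 37.2% and 38.4% in that order. Those that rose in KP22 were Ccno (1.65 ± 0.26), Mcidas (1.36 ± 0.51) and Myb (1.21 ± 0.072) in the authors' deposited table. Mcidas and Ccno had means of only 158 and 163. Myb, a transcription factor gene, also fell in 16T (-0.82 ± 0.073 in the authors' deposited table). Of 5 germline genes known to be silenced by E2F6 in mouse, 2 were tested in 16T and in KP1 and 4 in KP22. Stag3 rose in 16T (0.67 ± 0.23) and fell in KP1 (-0.72 ± 0.26) and KP22 (-0.70 ± 0.25), per the authors' deposited table. E2f6 fell in 16T, rose in KP1 and was not called in KP22, and its part in the values of these germline genes was not tested. Tuba3a, of the same list at a mean of 42.7, fell in both knockdown lines (-2.26 ± 0.39 and -1.63 ± 0.40) and rose in KP22 (1.45 ± 0.45) in the authors' deposited table, and Smc1b fell in KP22 (-1.44 ± 0.51).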
